A study of Mus musculus with 4 samples.

Results

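Aminoacyl-tRNA synthetases are the enzymes that join each amino acid to its transfer RNA (tRNA), and 39 genes of this family were followed here: 20 genes of the cytosolic enzymes, 16 genes of the mitochondrial enzymes and 3 genes of accessory proteins, Aimp1, Aimp2 and Eef1e1. They were chosen by name from a list of gene symbols, with earlier results of these data known. All 39 were found among the 50600 gene rows of the count tables. The RNA came from primary cells of C57BL/6NJ mice with the label T-helper 17 (Th17), a CD4 T-cell type that makes interleukin 17, in 4 libraries numbered as biological replicates 1 to 4. The 4 libraries form 1 group with no control, each has its own biosample record and all share 1 donor record, so that p-values below measure the spread between these libraries. The labels give neither age nor sex, name no treatment beyond a linked protocol for CD4 T-cell differentiation, and call the assay total RNA-seq although the title of the library protocol they link to names a poly(A)+ method.

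A synthetase reads both its amino acid and its tRNA, and the charged tRNA then carries the amino acid to the ribosome. Cytosolic translation and translation inside mitochondria use separate sets of tRNA, and for most amino acids mammals keep one nuclear gene for the cytosolic enzyme and another for the mitochondrial enzyme, whose symbol ends in 2. Exceptions are Gars and Kars, the glycine and lysine genes, which serve both compartments, and Eprs, whose single protein charges both glutamate and proline tRNA. Mitochondria have no separate glutamine enzyme: Ears2 loads glutamate and an amidotransferase converts it. A group of cytosolic synthetases is held in a multisynthetase complex by Aimp1, Aimp2 and Eef1e1. When charging falls short, uncharged tRNA activates the kinase GCN2, encoded by Eif2ak4, and translation of the transcription factor ATF4 rises. ATF4 is known to act on several cytosolic synthetase genes through a composite element shared with C/EBP factors.

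The libraries held between 29041979 and 48808978 counted fragments, and no pair of them was identical. Alignment names in the file headers are tagged with hour 0 in each library. The labelled cell type was checked against markers: of 8 Th17 genes 3 reached 1 TPM (a transcript level scaled by gene length and by the library's total) in every library, and their summed level ran from 15.02 to 26.6 TPM. Il17a was at 6.36, 4.30, 3.06 and 3.17 TPM in replicates 1 to 4, whereas Tcf7, a gene of naive and memory T cells, was at 3287, 2785, 3417 and 2649 TPM. The medians were 0.707 TPM for the Th17 genes, 803 TPM for 5 genes of naive T cells and 1160 TPM for 6 genes common to T cells, so the cells are called the labelled cells below. Of 4 B-cell and 4 erythroid markers 0 reached 1 TPM in every library, at summed levels of 1.04 to 1.75 and 0.0785 to 0.461 TPM, while 2 of 4 myeloid markers did, at a summed level of 10.4 to 16.4 TPM. Of 3 CD8 T-cell genes 2 did, at a summed level of 42.3 to 50.2 TPM, with Cd8b1 at 42.9 ± 2.88 and Cd8a at 0.150 TPM. The part of other cells in the results was not tested, and in bulk RNA fewer cells of a type and less RNA per cell cannot be told apart.

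Promoter sequence is shown for 8 genes because it carries the elements by which this family is usually grouped. RefSeq promoters (GRCm38.p6) were matched by symbol for 30 of the 39 genes, 13 cytosolic, 14 mitochondrial and 3 accessory, and each window searched ran from 250 bases before the annotated start to 50 after it. The ATF4-C/EBP element was searched as TGATGNAA on both strands. It was present in 5 of 13 cytosolic promoters, those of Aars, Gars, Iars, Tars and Yars, in 0 of 14 mitochondrial promoters and in 0 of 3 accessory promoters. Of all 27025 gene symbols with RefSeq promoters of that length, 4.51% held it in any of their promoters. The shares of all given below are shares of these symbols. The lines below run 5′ to 3′ on the gene's strand, from 150 bases before the start to 30 after it, and capitals mark TGATGNAA and, in Aars, Iars and Tars, also the E-box CACGTG, a motif of MYC and related factors.
Aars (chr8:111033692-111033871, plus strand): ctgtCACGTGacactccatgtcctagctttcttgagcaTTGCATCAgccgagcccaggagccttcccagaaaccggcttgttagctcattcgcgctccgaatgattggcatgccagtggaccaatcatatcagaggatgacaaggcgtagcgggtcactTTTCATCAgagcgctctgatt
Gars (chr6:55037851-55038030, plus strand): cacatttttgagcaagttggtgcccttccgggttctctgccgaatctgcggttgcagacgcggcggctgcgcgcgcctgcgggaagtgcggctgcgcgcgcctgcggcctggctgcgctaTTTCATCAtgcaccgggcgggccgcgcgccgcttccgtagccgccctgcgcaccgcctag
Iars (chr13:49681980-49682159, plus strand): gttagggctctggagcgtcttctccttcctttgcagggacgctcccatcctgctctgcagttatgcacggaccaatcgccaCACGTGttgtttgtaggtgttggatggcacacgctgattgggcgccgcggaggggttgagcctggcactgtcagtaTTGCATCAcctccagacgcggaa
Tars (chr15:11399629-11399808, minus strand): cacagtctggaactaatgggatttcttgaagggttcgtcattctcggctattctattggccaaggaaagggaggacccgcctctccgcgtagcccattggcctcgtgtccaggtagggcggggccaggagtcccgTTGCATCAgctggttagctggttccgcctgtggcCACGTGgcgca
Yars (chr4:129189753-129189932, plus strand): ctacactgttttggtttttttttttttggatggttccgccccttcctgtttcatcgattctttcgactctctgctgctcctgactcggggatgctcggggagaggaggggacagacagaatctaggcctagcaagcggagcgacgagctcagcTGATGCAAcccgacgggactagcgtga
The element lay before the start in Gars and Tars, just after it in Iars and Yars, and on both sides of it in Aars, whose promoter alone among the 5 held 2 copies. In 17 matched promoters of other genes of the GCN2-ATF4 response it was present in 6, among them that of Asns, the asparagine synthetase gene and a well-studied ATF4 target, shown with the element in capitals.
Asns (chr6:7693180-7693359, minus strand): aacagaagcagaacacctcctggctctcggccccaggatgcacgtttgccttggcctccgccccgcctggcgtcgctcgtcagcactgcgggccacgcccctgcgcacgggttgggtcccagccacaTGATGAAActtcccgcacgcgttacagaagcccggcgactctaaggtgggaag
The core motif of NRF1, a regulator of nuclear genes for mitochondrial proteins, was searched as CGCATGCG. It was present in 2 of 14 mitochondrial promoters, in 0 of 13 cytosolic ones and for 2.07% of all symbols. Vars2, the valine gene, held 2 copies and Wars2, the tryptophan gene, 1 copy, in capitals below.
Vars2 (chr17:35667563-35667742, minus strand): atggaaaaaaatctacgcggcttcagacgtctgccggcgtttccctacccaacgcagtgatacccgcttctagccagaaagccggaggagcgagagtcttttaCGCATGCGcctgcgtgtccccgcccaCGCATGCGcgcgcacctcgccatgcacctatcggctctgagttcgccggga
Wars2 (chr3:99140940-99141119, plus strand): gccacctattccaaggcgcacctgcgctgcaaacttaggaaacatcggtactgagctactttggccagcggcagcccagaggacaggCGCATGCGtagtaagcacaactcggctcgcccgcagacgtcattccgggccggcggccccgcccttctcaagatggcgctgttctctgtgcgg
The E-box CACGTG was in 4 of 13 cytosolic promoters (Aars, Farsb, Iars and Tars), in 1 of 14 mitochondrial promoters (Ears2) and in 8.09% of all. The ETS motif CCGGAAG was in 5 of 13 and 4 of 14, against 9.93% of all. CCAAT, a short motif, was in 7 of 13 cytosolic, 6 of 14 mitochondrial and 3 of 3 accessory promoters, against 41.1% of all, and the cyclic AMP element TGACGTCA was in none of the 30, against 2.03% of all. These matches are descriptions of letters in a window, not of sites bound in these cells, and 9 genes had no promoter in the table (Cars, Hars, Lars, Nars, Rars, Vars, Wars, Hars2 and Pars2).

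All 39 genes were expressed at 1 TPM or more in every library, beside 45.6% of the 21751 nuclear protein-coding genes measured. At 10 TPM the count was 37 of 39, beside 35.6%, and at 50 TPM it was 21 of 39, beside 15.9%. The total counts behind these levels ran from 1738 for Pars2 to 91306 for Lars2, so counting error is small for every member; PCR copies are not independent molecules, and this covers counting error only. Levels are given as the mean TPM of the 4 libraries with its SD, or library by library.

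**Figure D1:**
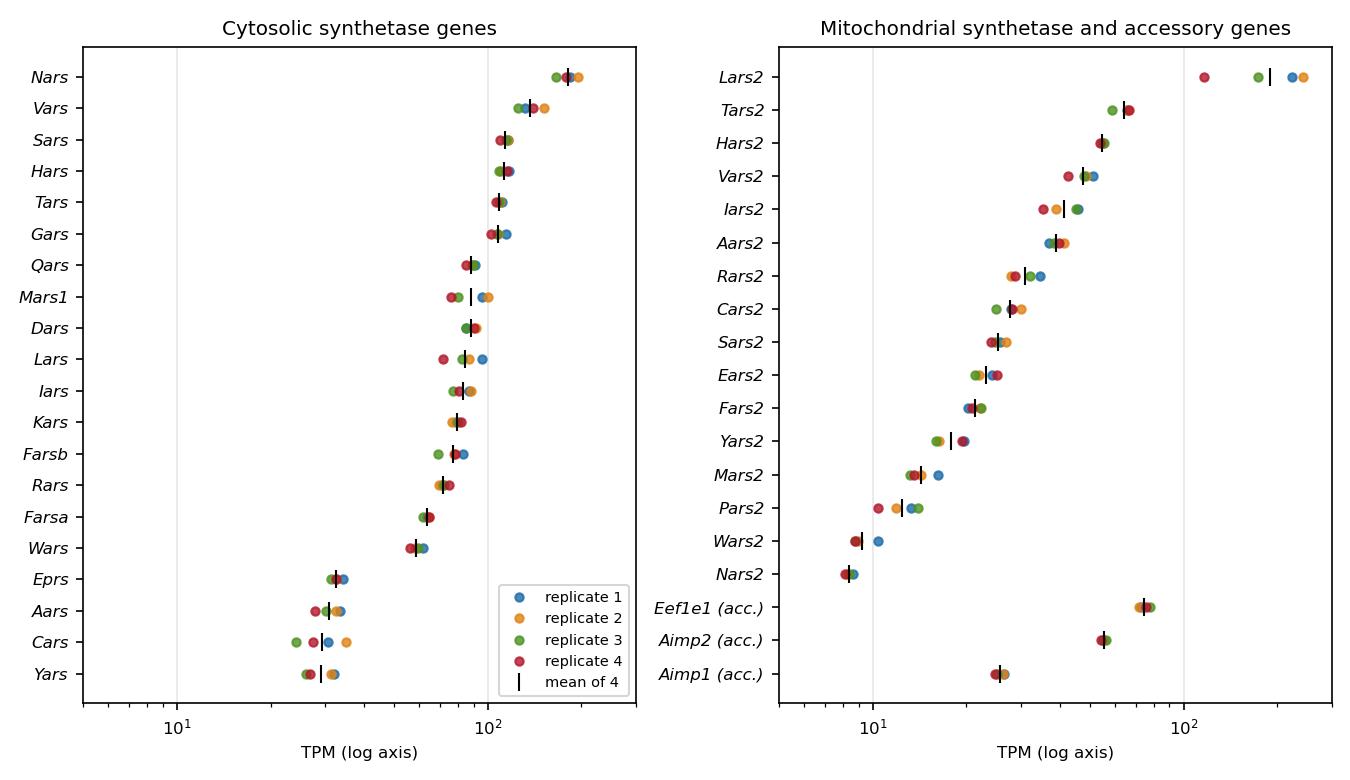
TPM of each of the 39 genes in each library, on a log axis, with cytosolic genes on the left and mitochondrial and accessory genes (acc.) on the right; coloured points are the libraries and the bar is the mean of 4. In mean level, with the union exon length, cytosolic genes lie between 29.0 and 181 TPM. The means of all mitochondrial genes except Lars2 lie between 8.36 and 64.4 TPM, and Lars2 has the widest spread.

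With the union exon length the cytosolic genes were led by Nars, which charges asparagine (ENSMUSG00000024587, chromosome 18, 64499665 to 64516557, minus strand, mm10). Its levels were 183, 194, 166 and 179 TPM in replicates 1 to 4, a mean of 181 ± 11.8 (SD, n = 4) at percentile 96.2 of nuclear protein-coding genes. Vars, the valine gene, followed with 132, 151, 125 and 139 TPM. Every Nars value lay above every Vars value, and every Vars value above those of the next gene, Sars (serine), at 114 ± 3.14 TPM. The lead depends on the length used: with the principal transcript length Qars, the glutamine gene, was at 138 and Vars at 124 TPM, against 120 for Nars.

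Sars, Hars (histidine), Tars (threonine) and Gars lay together between 108 and 114 TPM, and each overlapped its neighbour in this order. A gap with no overlap at the union exon length then separated Gars, at 108 ± 4.87 TPM, from Qars at 88.5 ± 2.54 TPM. Below it, Mars1 (methionine), Dars (aspartate), Lars (leucine), Iars (isoleucine), Kars, Farsb and Rars (arginine) formed a continuous run from 88.1 ± 11.8 down to 71.9 ± 2.14 TPM with neighbours overlapping. Farsa, at 63.9 ± 1.31, and Wars, at 58.8 ± 2.38 TPM, were each set apart from their neighbours. Farsa and Farsb encode the subunits of one phenylalanine enzyme and stood at 63.9 and 77.1 TPM, an order that turned with the principal transcript length (106 and 69.0 TPM). The gap below Gars and the grouping around it also rest on the union exon length. With the principal transcript length Qars at 138, Kars at 118 and Dars at 118 TPM stood above Sars at 109, Gars at 94.4 and Tars at 72.5 TPM.

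The 4 lowest cytosolic genes were Eprs at 32.6 ± 1.19, Aars (alanine) at 30.9 ± 2.46, Cars (cysteine) at 29.3 ± 4.61 and Yars (tyrosine) at 29.0 ± 3.00 TPM. They overlapped each other and all lay below every value of Wars. For Eprs the place in this order rests on the length: its union exon length was 18102 bases, against 4906 for its principal transcript within the counted exons, and with that length Eprs stood at 80.1 ± 2.91 TPM. Using principal transcript lengths for all genes rescales every TPM in a library. It raised the mean level of 8 of the 39 genes by more than 1.5 times, and 7 genes whose own length was the same under both fell by 1.5 times through the rescaling alone. In Aars, 14.3% of the exon bases also belong to Exosc6 on the same strand, and fragments there were left out of the counts.

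The mitochondrial genes had Lars2, the leucine gene, at the top with 223, 243, 173 and 116 TPM (ENSMUSG00000035202, chromosome 9, 123366927 to 123462666, plus strand). Tars2 (threonine) at 64.4 ± 3.61, Hars2 (histidine) at 54.8 ± 0.709 and Vars2 at 47.5 ± 3.67 TPM came next. No values overlapped between Lars2 and Tars2, between Tars2 and Hars2 or between Hars2 and Vars2.

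Vars2, Iars2 and Aars2 overlapped in steps, with Iars2 at 41.2 ± 5.02 TPM, and Rars2, Cars2, Sars2, Ears2 and Fars2 from 30.8 to 21.3 TPM. Yars2 at 17.9 ± 1.96, Mars2 at 14.3 ± 1.33 and Pars2, the proline gene, at 12.4 ± 1.58 TPM were lower again. The lowest were Wars2, at 10.4, 8.94, 8.74 and 8.76 TPM, and Nars2, at 8.67, 8.24, 8.37 and 8.16 TPM. Their values did not overlap, but the nearest were 8.74 and 8.67 TPM. Whether that gap exceeds counting error was not tested. Nars2 is encoded on chromosome 7 (96951505 to 97064758, plus strand). With the principal transcript length Nars2 was at 10.3 TPM, above Mars2 at 9.55 and Wars2 at 8.27 TPM.

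Among the accessory genes, Eef1e1 was at 74.5 ± 2.82, Aimp2 at 55.3 ± 0.800 and Aimp1 at 25.6 ± 0.818 TPM, with no overlap among them. With the principal transcript length the order was different, and Aimp1 stood highest at 84.8 ± 2.76 TPM against 51.4 for Aimp2 and 49.7 for Eef1e1. The 8 synthetase genes of the multisynthetase complex had a median of 83.8 TPM and the 12 other cytosolic genes one of 92.6 TPM. The 2 structural classes of synthetase, which differ in the fold of the catalytic domain, had medians of 77.6 (class I, 10 genes) and 98.0 TPM (class II, 10 genes) in the cytosol and of 27.7 (9 genes) and 25.3 TPM (7 genes) in mitochondria. These list medians were not tested against each other.

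Cytosolic genes as a group stood above mitochondrial genes in every library. The median cytosolic level was 83.8 TPM, at percentile 90.2 of nuclear protein-coding genes, and the median mitochondrial level was 26.5 TPM, at percentile 73.6. The difference in mean log2(TPM + 1) was 1.34, 1.41, 1.33 and 1.41 in replicates 1 to 4, a mean of 1.37 ± 0.04 (SD, n = 4), which is 2.59-fold, and 4 of 4 libraries gave the same direction with little spread between them. Summed over genes, the cytosolic set made up 1716, 1724, 1599 and 1625 TPM and the mitochondrial set 678, 680, 605 and 541 TPM. Lars2 alone carried much of the movement in the second sum, which was 455, 438, 431 and 425 TPM without it.

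The sets overlapped. In mean level with the union exon length, 9 of 16 mitochondrial genes lay below the lowest cytosolic gene, Yars. On the same scale 14 of 20 cytosolic genes lay above every mitochondrial gene except Lars2. Eprs, Aars, Cars, Yars, Wars and Farsa were the cytosolic genes that did not. Without Lars2 the difference in mean log2(TPM + 1) was 1.55, and with Gars and Kars, which serve both compartments, left out it was 1.34. The place of single genes depends on the length used. With the principal transcript length Tars2 was at 123.9 TPM. Qars, at 138 TPM, was then the only cytosolic gene above it, with Vars at 123.6 TPM.

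The pairing by amino acid asks whether the same direction holds when each cytosolic gene is set against its own mitochondrial partner. Of 13 pairs of 1 gene against 1, the cytosolic gene was higher in every library in 10, the mitochondrial gene in 2, and 1 pair was mixed. The median log2 ratio of cytosolic to mitochondrial TPM (pseudocount 0.1) was 1.04. With 4 libraries the exact permutation test, which flips the signs of the log2 ratios and is two-sided, cannot give a p below 0.13. The 12 pairs with a uniform direction reached it (exact permutation adjusted p = 0.135 over the 13 pairs). No pair can pass a threshold of 0.05 in this design.

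Asparagine had the widest ratio. Nars exceeded Nars2 by a log2 ratio of 4.39, 4.54, 4.29 and 4.44 in replicates 1 to 4, a mean of 4.42 ± 0.10 (SD, n = 4) or 21.3-fold. Wars exceeded Wars2 by 2.67 ± 0.08, Mars1 exceeded Mars2 by 2.61 ± 0.14 and Sars exceeded Sars2 by 2.17 ± 0.04 on the same log2 scale. For all 4 of these amino acids the direction was the same with the principal transcript length and without any length correction.

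The middle of the order held Vars/Vars2 at 1.52 ± 0.18, Rars/Rars2 at 1.23 ± 0.15, Hars/Hars2 at 1.04 ± 0.06 and Iars/Iars2 at 1.02 ± 0.20. Hars and Hars2 are neighbours on chromosome 18, transcribed away from each other overlapping at their starts on opposite strands, at 36766530 to 36783205 (minus) and 36783008 to 36792562 (plus), and the strand-specific counting setting keeps their fragments apart. Tars/Tars2 was at 0.76 ± 0.09 and Yars/Yars2 at 0.70 ± 0.19, each with the cytosolic gene higher in 4 of 4 libraries. The Tars/Tars2 ratio turned to -0.77 with the principal transcript length and to -0.63 without length correction, so its direction depends on the length used.

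Alanine, cysteine and leucine did not follow the others. Aars was below Aars2 in 4 of 4 libraries, at a log2 ratio of -0.33 ± 0.15, but above it at 0.35 with the principal transcript length. Cars and Cars2 had ratios of 0.13, 0.22, -0.04 and -0.04 in replicates 1 to 4, a mean of 0.07 ± 0.13 with 2 of 4 libraries on each side (exact sign-flip permutation p = 0.5). Lars was below Lars2 by a log2 ratio of -1.22, -1.48, -1.07 and -0.69, a mean of -1.11 ± 0.33, with Lars2 2.17-fold higher.

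Leucine was the one pair with the mitochondrial gene higher in 4 of 4 libraries under both lengths, and the principal transcript length gave a ratio of -2.62. Glutamate, proline and phenylalanine do not form pairs of 1 against 1. Eprs exceeded Ears2 by 0.49 ± 0.09 and Pars2 by 1.397 ± 0.19, and Farsa and Farsb exceeded Fars2 by 1.58 ± 0.08 and 1.85 ± 0.17, each in 4 of 4 libraries.

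**Figure D2:**
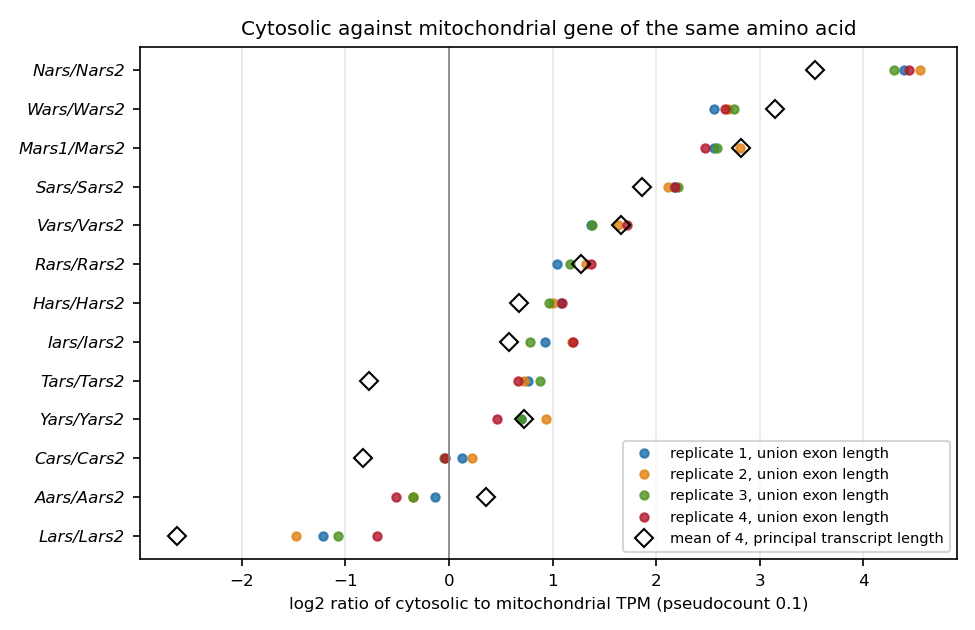
Log2 ratio of cytosolic to mitochondrial TPM (pseudocount 0.1) for the 13 amino acids with 1 gene in each set; coloured points are the libraries with the union exon length, diamonds the mean with the principal transcript length, and the line at 0 marks equal levels. Nars/Nars2 stands at 4.42 and Lars/Lars2 at -1.11, and the diamonds of Aars/Aars2, Cars/Cars2 and Tars/Tars2 fall on the other side of 0 from the mean of the points.

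How much each gene varied between libraries was the one contrast a single group allows. The median coefficient of variation (CV) of CPM (counts scaled to the library's total after TMM normalization) was 4.28% for cytosolic genes, 7.09% for mitochondrial genes and 2.22% for accessory genes, beside 5.82% for the 7989 tested genes in the same range of abundance. Spread was tested on all 12464 genes past the count filter with edgeR's quasi-likelihood dispersion against its trend, one-sided, with Benjamini-Hochberg adjustment. Of the 39 members 0 were called at an adjusted p below 0.05, beside 0.193% of all genes tested. At an unadjusted p below 0.05 there were 4 of 39 (Lars2, Cars, Mars1 and Iars2), beside 5.34%.

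**Figure D3:**
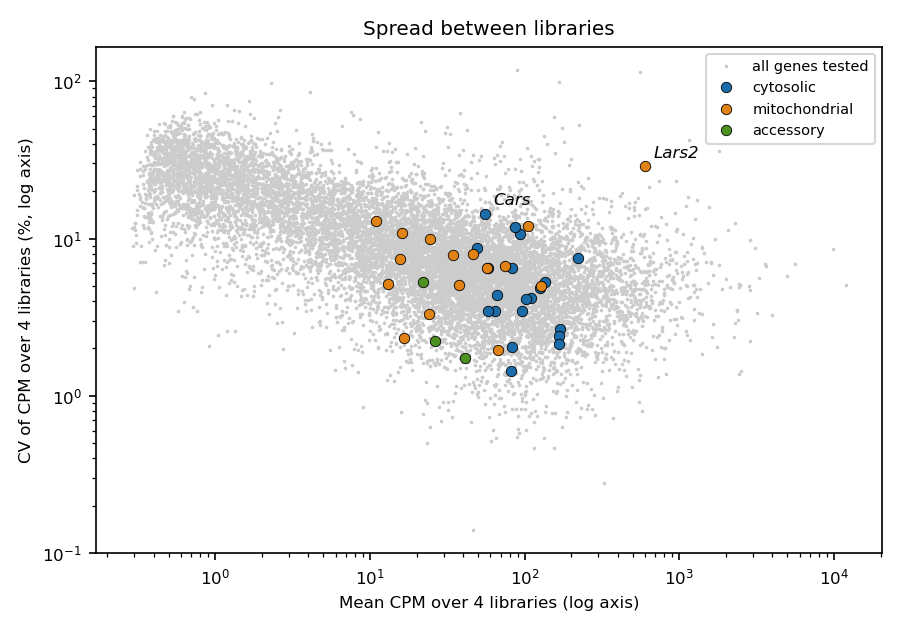
CV over the 4 libraries against mean CPM, both on log axes, for all 12464 genes tested (grey) and for cytosolic, mitochondrial and accessory members (coloured). Most members lie in the grey cloud, and Lars2 lies at its upper edge for its abundance.

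Lars2 had the widest spread of the family. Its counts were 20642, 26726, 27313 and 16625 in libraries of unequal depth, its TPM values gave a CV of 30.0%, and the highest library (replicate 2) was 2.09-fold above the lowest (replicate 4). In edgeR's test its p was 0.000172 and its adjusted p 0.0596, just outside the threshold. Leaving out replicate 1 gave an edgeR adjusted p of 0.0490, with 0.235% of genes called, and leaving out replicates 2, 3 or 4 gave 0.152, 0.130 and 0.199. With no filter on low counts it was 4.11e-16, with 1.63% of genes called, and with a higher filter 0.157. DESeq2 also marked Lars2 as a dispersion outlier, beside 0.866% of genes, so the call depends on replicate 1, on the filter and on the tool.

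Within the 3′ untranslated end of the Lars2 transcript, bases 3278 to 3349 of 3894 align at 98.6% identity over 72 bases with the transcript of Gm15564, an antisense RNA gene on chromosome 16. Bases 3163 to 3349 align at 80.1% over 196 aligned positions with AA474408. Gm15564, named after its values were seen, was at 15.8, 15.1, 10.9 and 7.82 TPM, lowest in replicate 4 as Lars2 and 30.6% of all genes tested were, with 441 counts in all (edgeR adjusted p = 0.966). AA474408, with 70 counts in all, was at 0.863, 0.241, 0.421 and 0.417 TPM, lowest in replicate 2, where Lars2 was highest. The part of this shared stretch in the Lars2 level was not tested, since counts per gene do not show where in a gene the fragments lie.

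The next widest spreads of TPM were those of Cars, Mars1, Pars2, Iars2 and Lars. Cars was at 30.5, 35.0, 24.2 and 27.4 TPM, with replicate 3 lowest (edgeR adjusted p = 0.765). Mars1 was at 95.7, 100, 80.1 and 76.1 TPM, with replicates 1 and 2 above replicates 3 and 4 (adjusted p = 0.901). Lars, the cytosolic partner of Lars2, was at 96.1, 86.9, 82.5 and 71.7 TPM and like Lars2 was lowest in replicate 4 (adjusted p = 0.942). At the other end Hars2 had a CV of TPM of 1.29%, with 55.2, 54.7, 55.5 and 53.9 TPM.

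The sets were also followed by library. The mean deviation of log2(CPM + 1) from the mean of the 4 libraries was 0.03, 0.03, -0.04 and -0.03 for cytosolic genes in replicates 1 to 4, with CPM after TMM normalization. Scaled by total counts alone it was 0.06, 0.04, -0.04 and -0.06. For the 16 mitochondrial genes it was 0.06, 0.00, -0.00 and -0.06, and without Lars2 0.05, -0.03, 0.00 and -0.02. Replicate 4 gave the lowest value for 8 of 20 cytosolic genes and 5 of 16 mitochondrial genes, beside 30.6% of all genes tested, and replicate 1 gave the highest value for 7 of 20 and 5 of 16, beside 27%. A list of 7 heat shock genes, chosen with their difference between these libraries known, had mean deviations of -0.61, -0.00, -0.33 and 0.95. Those values describe the libraries, and their part in the synthetase levels was not tested.

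**Figure D4:**
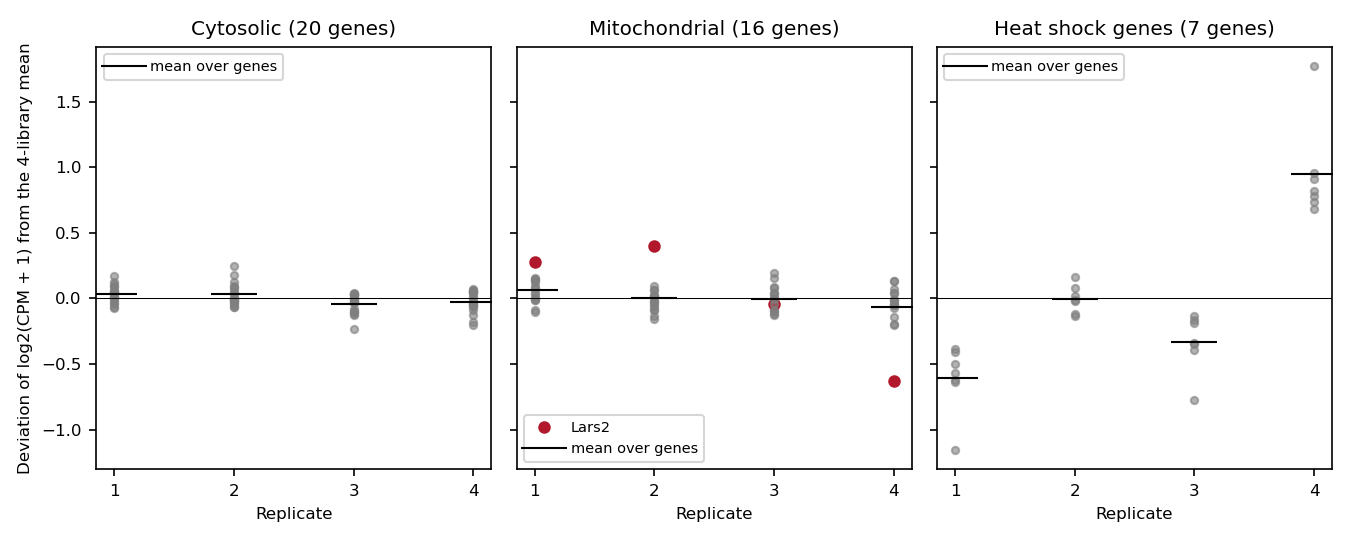
Deviation of log2(CPM + 1) in each library from the mean of the 4 libraries, for 20 cytosolic, 16 mitochondrial and 7 heat shock genes, the last chosen with their difference known; grey points are genes, bars are means over genes and red points are Lars2. Cytosolic means stay between -0.04 and 0.03, Lars2 leaves the other mitochondrial genes in replicates 1, 2 and 4, and the heat shock mean is at 0.95 in replicate 4.

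Other genes of tRNA charging were lower than the synthetases themselves. The list of 15 holds the subunits of the mitochondrial amidotransferase, proofreading enzymes, the enzyme that adds the tRNA end, pyrophosphatases and others, and 15 of 15 reached 1 TPM in every library, 9 reached 10 TPM and 0 reached 50 TPM. Its median was 15.2 TPM. The highest were Trnt1, which adds the CCA end of tRNA, at 38.9 ± 1.30, Mtfmt, which formylates the mitochondrial initiator tRNA, at 32.0 ± 1.21, Dtd1, which removes D-amino acids from tRNA, at 31.9 ± 2.51 and the pyrophosphatase gene Ppa1 at 30.2 ± 2.07 TPM. The amidotransferase subunit genes Gatc, Qrsl1 and Gatb, which complete glutamine charging in mitochondria with Ears2 (23.2 TPM), were at 24.0, 19.3 and 9.69 TPM. Of the 15 genes 0 were called in edgeR's test, and 0 had an unadjusted p below 0.05.

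The GCN2-ATF4 list was divided. Of its 20 genes 13 reached 1 TPM in every library, 6 reached 50 TPM and the median was 20.2 TPM. Atf4 was at 319, 338, 364 and 316 TPM, the kinase gene Eif2ak4 at 13.6 ± 0.988 TPM and the serine and glycine pathway genes Shmt2 and Phgdh at 112 ± 10.2 and 62.5 ± 6.22 TPM. The amino acid transporter subunit gene Slc3a2 was at 90.7 ± 2.83 and its partner Slc7a5 at 61.0 ± 8.29 TPM.

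The other end of that list was close to 0. Asns had 6, 5, 9 and 5 counts in replicates 1 to 4, which is 0.205 ± 0.0535 TPM, and Cth, a gene of cysteine synthesis, had 9 counts in all. Aldh1l2 had 4 counts over all libraries, Chac1, Slc7a11 and Nupr1 had 2 each and Vldlr had 1. A library with 0 counts of a gene allows up to 3, by counting error only. In contrast, the 5 synthetase genes whose promoters hold TGATGNAA were at 109 (Tars), 108 (Gars), 83.3 (Iars), 30.9 (Aars) and 29.0 TPM (Yars). The same letters therefore occurred in promoters of genes at both ends of the range, from Asns, printed above, to Tars. Of the 13 genes of the list that could be tested 0 were called in edgeR's test, and 1 had an unadjusted p below 0.05: Slc7a5, with an edgeR adjusted p of 0.915.

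**Figure D5:**
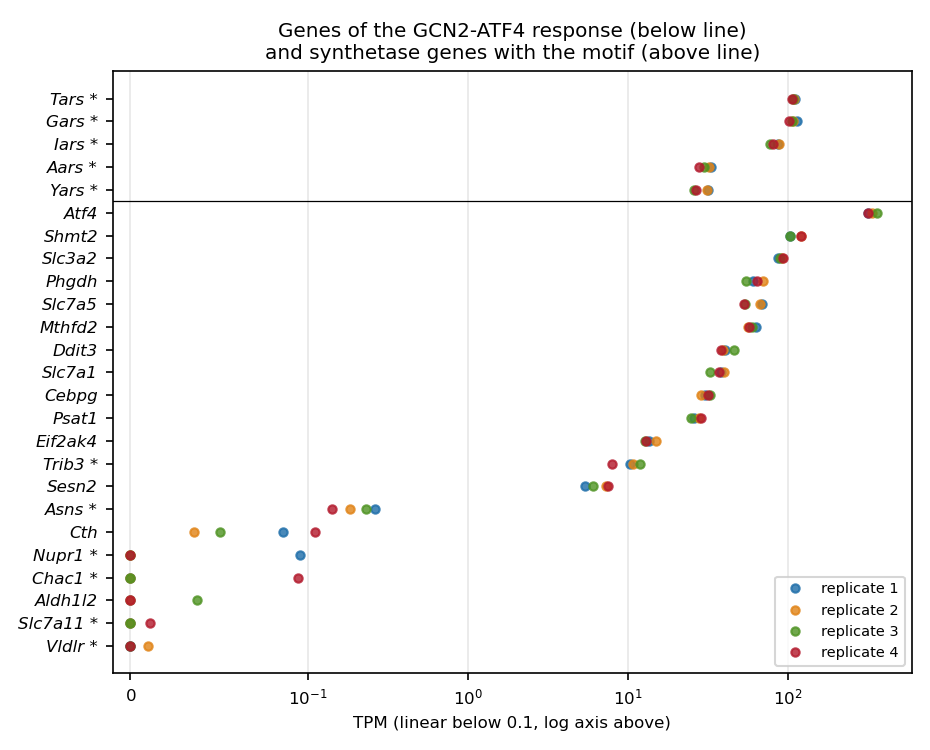
TPM in each library of the 5 synthetase genes with TGATGNAA in the promoter (above the line) and of 20 genes of the GCN2-ATF4 response (below it), on an axis that is linear below 0.1 and logarithmic above; an asterisk marks genes whose promoter holds the element. Genes with the asterisk are found from 109 TPM (Tars) down to a few counts (Nupr1, Chac1, Slc7a11, Vldlr), with Asns at 0.205 TPM.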

How the data were processed

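RNA was measured in 4 libraries of 1 group. The authors deposited raw counts of fragments, 1 value per gene and library, made per the file headers with featureCounts 1.4.6-p4 on GENCODE M13 exons (mm10), in pairs with both ends mapped and strand setting 2. Fragments shared by several genes or places were left out, so genes with a close copy, such as Iars with Gm4849, are counted too low, by how much is unknown. No source used here gives an aligner version. Symbols came from GENCODE M21. They matched 50376 of 50600 gene IDs, and the 224 others held at most 0.0151% of counts. Of the members 38 matched by symbol and 1, Mars1, by a RefSeq synonym.

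Dividing those counts by each table's own union exon length and scaling gave TPM. Members and lists were chosen with earlier results of these data known, so levels are descriptions. All members are named, and of the other lists up to 4 genes by level and any called. Genes at or near 0 counts, the ATF4 pathway genes Eif2ak4 and Slc7a5 and the amidotransferase genes were added after their values were seen.

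Spread was tested with edgeR 4.0.16 in R 4.3.3 (intercept only, TMM, filterByExpr, robust). In a simulation of the 12464 genes, with 200 changed in 1 library, 0% of 2-fold and 87.5% of 4-fold changes were recovered, with 11 false calls among 186. DESeq2 1.42.0 was an alternative, and blastn 2.17.0 aligned Lars2 with other transcripts. Python 3.11.15, pandas 2.3.3 and scipy 1.17.1 served the other steps. Alternatives covered length, scaling, pseudocount, filter and each library left out. Those with the principal transcript length and without Lars2 were chosen after seeing the data. Protein sequences were not analysed here.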

Additional observations from a re-analysis of the deposited data

Results flagged for a closer look

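In 2 of the 39 genes 1 library lay apart from the other 3 by Dixon's ratio, a rule that chance meets in about 1 of 20 groups. Of all genes tested 4.44% did so in CPM. Tars2 was lowest in replicate 3, at 59.0 TPM, with the other libraries between 65.6 and 66.7 TPM. Wars2 was highest in replicate 1, at 10.4 TPM, with the others between 8.74 and 8.94 TPM. Neither gene was called in edgeR's test of spread.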

How the results depend on the processing

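The cytosolic set stayed above the mitochondrial set under every alternative run. The median cytosolic level of 83.8 TPM became 95.5 over nuclear protein-coding genes only, 74.2 as a geometric mean, 89.7 CPM without length correction and 74.6 with the principal transcript length, and 81.2 to 85.7 with 1 library left out. The median mitochondrial level of 26.5 TPM became 30.2, 27.9, 35.8 and 30.2 in the same order, 25.3 without Lars2, and 25.9 to 27.1 with 1 library left out. The difference in mean log2(TPM + 1) of 1.37 was 1.62 by medians, 1.20 without length correction, 1.29 with the principal transcript length and 1.55 without Lars2, and 1.36 to 1.39 with 1 library left out. Pairs whose direction turned were Aars/Aars2 (1.13 without length correction, 0.35 with the principal transcript length), Cars/Cars2 (-0.0681 and -0.83), Tars/Tars2 (-0.63 and -0.77) and Hars/Hars2 (-0.0689 without length correction), and these settings differ from the main one in length alone. Members called for spread numbered 1, Lars2, with no filter on low counts, without replicate 1 and by DESeq2, and 0 otherwise, which gives a range of 0 to 1 with 1 library left out. The cause was not tested. No paired analysis was possible because the libraries form 1 group. Levels of single genes moved with both the length and the scaling used. The depth of 29041979 counts or more leaves counting error small for all 39 genes.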
